A study of Mus musculus with 12 samples.

Results

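Which gene starts carried H3K4me3, H3K27me3, both or neither was described in control-treated breast tumour organoids of the mouse. PyMT organoids are three-dimensional cultures grown from mammary tumours of mice that express the polyoma virus middle T oncoprotein. The members were the control libraries, 4 of the 12 CUT&Tag libraries of the series: 2 for H3K4me3 and 2 for H3K27me3, chosen by the treatment label Ctrl and paired across marks by replicate number. All 4 carry the labels PyMT derived organoids, tumoroids, breast cancer and genotype WT, were collected 3 days after control treatment, and have a replicate number that is also the batch number (1 or 2). The other 8 libraries were organoids with the treatments SR2 or THC. Of these, the 4 treated H3K27me3 libraries were used below only to see where H3K27me3 peaks recurred. The labels name neither the promoter behind the oncoprotein nor the number of mice or clones behind the organoids, and they do not say that the replicates were separate cultures, so the spread between replicates may be technical. The units counted were 21883 protein-coding genes.

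H3K4me3, trimethylation of lysine 4 of histone H3, is laid down by the COMPASS family of methyltransferases around the starts of genes that are active or ready to be activated, most of all at CpG islands. H3K27me3 is laid down by Polycomb repressive complex 2, whose catalytic subunit is Ezh2 or Ezh1, and marks genes held silent, such as developmental transcription factors of other lineages and the Hox clusters. Starts with both marks at once are called bivalent and are best known from embryonic stem cells. In CUT&Tag an antibody against the mark brings a transposase to the chromatin, so the DNA fragments released come from around the marked nucleosomes.

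A gene was counted as marked where a deposited peak overlapped the window of 1 kb either side of one of its starts. Over both replicate numbers, 11069 genes had H3K4me3 only, 35 had H3K27me3 only, 28 had both marks and 9292 had neither, and the remaining 1459 changed class between the numbers. The promoters below, from 250 bases before to 50 bases after the start, show what each class looked like in sequence. They come from RefSeq, build GRCm38.p6 (mm10), are written 5′ to 3′ on the strand of the gene in lower case, and have each CpG in capitals.

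From H3K27me3 only, Tbx18 (chr9:87731211-87731510, minus strand) and Hoxa13 (chr6:52260831-52261130, minus strand) are shown because their H3K27me3 peaks stood highest among the named genes of the class. Tbx18 encodes a T-box factor of the developing heart and urogenital tract, and Hoxa13 a homeodomain factor of the distal limb and the hindgut.
Tbx18: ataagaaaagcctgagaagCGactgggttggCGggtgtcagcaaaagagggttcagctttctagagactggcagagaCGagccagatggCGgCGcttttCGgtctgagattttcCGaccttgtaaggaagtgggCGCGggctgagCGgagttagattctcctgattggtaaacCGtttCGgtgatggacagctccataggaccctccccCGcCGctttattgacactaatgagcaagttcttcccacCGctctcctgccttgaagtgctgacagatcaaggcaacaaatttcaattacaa
Hoxa13: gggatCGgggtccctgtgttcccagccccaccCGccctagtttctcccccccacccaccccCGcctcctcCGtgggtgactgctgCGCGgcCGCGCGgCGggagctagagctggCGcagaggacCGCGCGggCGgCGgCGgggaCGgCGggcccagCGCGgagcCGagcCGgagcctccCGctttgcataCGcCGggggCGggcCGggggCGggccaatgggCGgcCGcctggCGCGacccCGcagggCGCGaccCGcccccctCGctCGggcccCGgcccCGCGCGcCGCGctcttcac

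From both marks, Frmd4b (chr6:97487771-97488070, minus strand), a scaffold protein with a FERM domain, and Tmem267 (chr13:119488223-119488522, plus strand), a transmembrane protein, are shown for the same reason.
Frmd4b: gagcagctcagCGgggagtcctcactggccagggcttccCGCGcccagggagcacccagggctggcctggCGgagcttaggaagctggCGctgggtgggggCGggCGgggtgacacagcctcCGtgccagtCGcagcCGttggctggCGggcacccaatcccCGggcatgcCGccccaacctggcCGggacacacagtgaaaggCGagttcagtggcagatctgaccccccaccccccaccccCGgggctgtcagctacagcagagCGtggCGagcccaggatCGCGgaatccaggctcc
Tmem267: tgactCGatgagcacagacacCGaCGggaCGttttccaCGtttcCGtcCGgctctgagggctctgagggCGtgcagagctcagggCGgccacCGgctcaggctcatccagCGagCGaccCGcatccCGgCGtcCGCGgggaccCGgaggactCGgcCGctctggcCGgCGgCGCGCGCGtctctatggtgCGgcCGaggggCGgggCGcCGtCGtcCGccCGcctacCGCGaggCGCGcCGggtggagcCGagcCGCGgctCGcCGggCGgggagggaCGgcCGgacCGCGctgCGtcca

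From H3K4me3 only, Brd2 (chr17:34119851-34120150, minus strand), a bromodomain reader of acetylated histones, and Tob2 (chr15:81858277-81858576, minus strand), an antiproliferative protein, are shown because their H3K4me3 peaks were the widest of the class.
Brd2: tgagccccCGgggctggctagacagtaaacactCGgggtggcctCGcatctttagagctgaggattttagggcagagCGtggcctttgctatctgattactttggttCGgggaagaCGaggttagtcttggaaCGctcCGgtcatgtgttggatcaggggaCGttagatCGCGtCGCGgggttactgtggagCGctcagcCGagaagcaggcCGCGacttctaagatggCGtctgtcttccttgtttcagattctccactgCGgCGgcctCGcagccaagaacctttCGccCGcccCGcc
Tob2: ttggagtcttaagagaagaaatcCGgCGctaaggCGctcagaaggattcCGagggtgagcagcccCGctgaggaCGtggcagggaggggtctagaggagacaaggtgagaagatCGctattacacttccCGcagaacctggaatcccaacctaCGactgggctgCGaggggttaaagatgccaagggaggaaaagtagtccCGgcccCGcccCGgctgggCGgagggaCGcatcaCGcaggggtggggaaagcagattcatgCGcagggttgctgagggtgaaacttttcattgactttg

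From neither mark, Alb (chr5:90460620-90460919, plus strand), the serum albumin of hepatocytes, and Syt1 (chr10:109010926-109011225, minus strand), the calcium sensor of synaptic vesicles, are shown as genes of other tissues.
Alb: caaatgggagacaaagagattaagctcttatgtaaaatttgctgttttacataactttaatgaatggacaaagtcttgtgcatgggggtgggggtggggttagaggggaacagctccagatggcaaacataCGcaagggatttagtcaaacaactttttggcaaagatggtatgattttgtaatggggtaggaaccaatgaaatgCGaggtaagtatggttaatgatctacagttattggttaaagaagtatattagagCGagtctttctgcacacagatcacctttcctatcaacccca
Syt1: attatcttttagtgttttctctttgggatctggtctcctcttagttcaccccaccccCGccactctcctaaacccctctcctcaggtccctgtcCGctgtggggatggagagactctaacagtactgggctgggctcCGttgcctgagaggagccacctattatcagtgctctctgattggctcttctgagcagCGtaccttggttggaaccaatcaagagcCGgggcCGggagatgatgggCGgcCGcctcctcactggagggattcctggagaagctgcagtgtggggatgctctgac

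The 8 promoters differed most in CpG. Hoxa13 held 45 CpG in its 300 bases and Tmem267 held 50, whereas Alb held 3 and Syt1 held 8. Tbx18 held 15, Tob2 17, Frmd4b 20 and Brd2 24, so the 3 marked classes overlapped in these examples. The Tbx18 peak of H3K27me3 covered chr9:87729732-87730775 in replicate 1 and chr9:87729396-87730526 in replicate 2, both inside the gene and downstream of the printed start. At Hoxa13 the H3K27me3 peaks (chr6:52259082-52260092 and chr6:52259315-52260128) likewise lay within the gene. At the printed Frmd4b start a narrow H3K4me3 peak of 524 bp in replicate 1 and 665 bp in replicate 2 overlapped an H3K27me3 peak of 849 bp and 416 bp. At Tmem267 an H3K4me3 peak of 1289 bp and 1063 bp overlapped an H3K27me3 peak of 777 bp and 820 bp. Tmem267 and 4931408C20Rik were the protein-coding genes within 1 kb of any of 25 positions that carried H3K27me3 peaks in all 6 H3K27me3 libraries of the series. Over these positions the median −log10 q was 23.8 in replicate 1 and 23.1 in replicate 2, whereas the Tmem267 peaks had 2.63 and 2.01.

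The H3K4me3 lists held many wide peaks at gene starts, and the H3K27me3 lists held few narrow ones, most of them elsewhere. H3K4me3 had 18383 peaks in replicate 1 and 16442 in replicate 2. H3K27me3 had 2712 in replicate 1 and 387 in replicate 2. The H3K4me3 replicates were close in number while the H3K27me3 replicates were not, and no H3K27me3 list came near an H3K4me3 list. H3K4me3 covered 18.6 Mb and 16.2 Mb of the genome, and H3K27me3 covered 1.23 Mb and 0.199 Mb. The mean number was 17412.5 ± 1372.5 (SD, n = 2) for H3K4me3 and 1549.5 ± 1644.0 (SD, n = 2) for H3K27me3, a ratio of 11.2, with 6.78 in batch 1 and 42.5 in batch 2.

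H3K4me3 peaks were also wider, at a median of 965 bp and 948 bp against 344 bp and 377 bp for H3K27me3, a ratio of 2.65 between the means. The widest peaks of both marks were alike in size, at 5018 bp and 4118 bp for H3K4me3 and 5599 bp and 5553 bp for H3K27me3. At least 2000 bp were reached by 845 and 633 H3K4me3 peaks, and by 10 and 2 H3K27me3 peaks. The share of peaks within 1 kb of a protein-coding start was 63.1% and 68.1% for H3K4me3 and 29.7% and 23.8% for H3K27me3. Between genes lay 16.9% and 14.3% of H3K4me3 peaks and 43.4% and 47.3% of H3K27me3 peaks, and the rest lay inside genes away from a start.

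For peak number, covered length, median width and share near a start, the 2 marks did not overlap, and each gave p = 0.333 in a two-sided exact permutation test over the 4 libraries (0.333 after Benjamini-Hochberg adjustment over 4 tests). That is the smallest p that 2 libraries against 2 can give, so this design cannot pass 0.05. The marks differed in antibody, in the narrow or broad form of the deposited peak lists and possibly in depth, and these cannot be told apart from the mark.

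**Figure D1:**
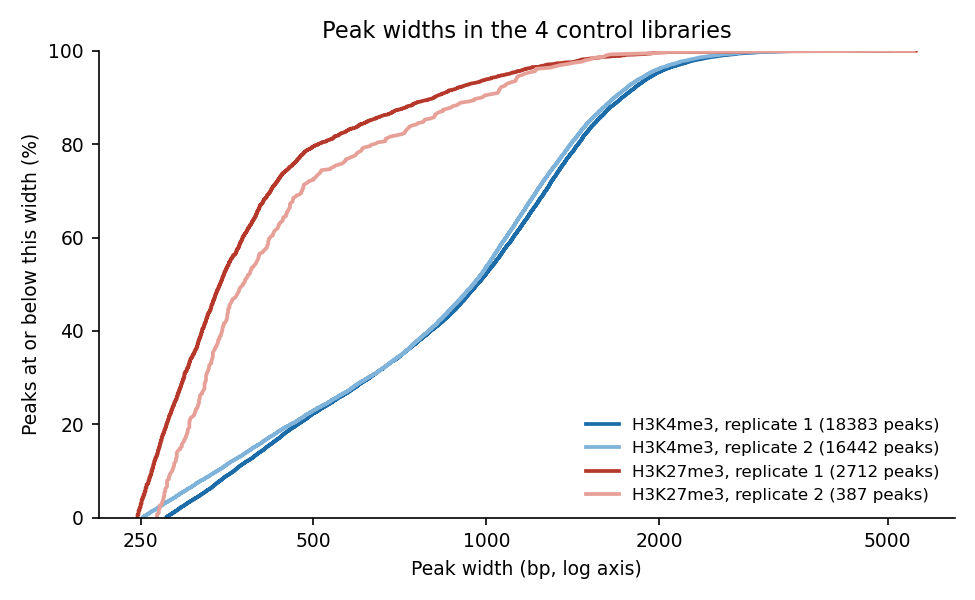
Cumulative share of peaks (vertical axis, %) by peak width (horizontal axis, bp, log scale) in each of the 4 control libraries. The H3K4me3 curves lie over each other with medians of 965 and 948 bp, and both H3K27me3 curves lie to their left with medians of 344 and 377 bp.

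The authors' −log10 q is given here to describe each list, since values of narrow and broad peaks are not on 1 scale. The median −log10 q of a peak was 33.5 and 33.6 in the H3K4me3 lists and 1.58 and 1.54 in the H3K27me3 lists. At least 5 was reached by 82.4% and 83.4% of H3K4me3 peaks, and by 78 (2.88%) and 31 (8.01%) H3K27me3 peaks. Of the H3K4me3 peaks, 79.8% of those in replicate 1 and 90.3% of those in replicate 2 overlapped a peak of the other replicate. Of the H3K27me3 peaks the shares were 6.86% and 48.3%. The lowest background pileup behind the H3K4me3 peaks, recovered from the deposited fold and −log10 p, was 1.05 and 1.02. No such value was computed for H3K27me3, so its depth is not known.

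H3K4me3 peaks covered the start more often than H3K27me3 peaks did. At genes with a single listed start, the midpoint of the H3K4me3 peak lay a median of 201 bp downstream in replicate 1 and 195 bp downstream in replicate 2. These peaks covered the start itself in 93.1% and 92.6% of gene and peak pairs. H3K27me3 peaks had their midpoint a median of 74 bp and 138 bp downstream and covered the start in 48.7% and 37.0% of pairs. Those shares rest on 565 and 54 pairs, and the midpoint quartiles in replicate 2 were -167 bp and 761 bp. H3K27me3 peaks were also narrower, and widths were not matched, so the part of width in this difference was not tested.

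H3K4me3 marked a little over 1 in 2 protein-coding genes, and the replicates marked largely the same ones. It was found at 12312 genes in replicate 1 (56.3%), at 11888 in replicate 2 (54.3%) and at 11789 in both (53.9%). H3K27me3 was found at 929 genes in replicate 1 (4.25%), at 98 in replicate 2 (0.448%), at 71 in both (0.324%) and at 956 in at least 1 of them (4.37%). The H3K27me3 genes of replicate 2 were mostly among those of replicate 1: 71 of 98, or 72.4%, while the same 71 made up 7.64% of the genes of replicate 1.

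By number, batch 1 had 751 genes with both marks, 11561 with H3K4me3 only, 178 with H3K27me3 only and 9393 with neither. Batch 2 had 45, 11843, 53 and 9942. The count with H3K4me3 only and the count with neither were close between batches. Both counts that need H3K27me3 were lower in batch 2, where the H3K27me3 list was shorter, and both marks fell more steeply. H3K4me3 was present at 80.8% of the 929 H3K27me3 genes in batch 1, above the 56.3% of all genes. In batch 2 it was present at 45.9% of the 98, below the 54.3% of all genes, so the direction was not shared. Of the 751 genes with both marks in batch 1, 677 had H3K4me3 only in batch 2 and 28 again had both. Each class count below is given beside its share of all genes: 50.6% for H3K4me3 only, 0.160% for H3K27me3 only, 0.128% for both marks and 42.5% for neither.

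H3K27me3 without H3K4me3 in both numbers was found at 35 genes, and 20 of them belonged to 2 lists, the Hox cluster genes and other developmental transcription factors. They were 11 Hox genes, Evx2 beside the Hoxd cluster, the homeodomain factors Barx1, Lhx4 and Pou3f2, the paired box factor Pax2, the neural factors Neurog1, Neurod2 and Zic2, and the T-box factor Tbx18. Outside the lists, Dbx2, Dmrt3, Hmx3, Lbx1, Nkx2-9, Prdm12 and Sp8 also encode developmental transcription factors. The lists together hold 178 of the 21883 genes. Of the 35 genes, 26 had an H3K27me3 peak in at least 1 of the 4 treated libraries.

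The 12 named genes of this class, taken by the rank of their H3K27me3 peak, were Tbx18, Hoxa13, Hoxd12, Lbx1, Hoxa4, Neurog1, Sp8, Zic2, Igf2bp1, Hoxb9, Hoxd9 and Nkx2-9. In Zic2, a zinc finger factor of forebrain patterning, the widest H3K27me3 peak was 2904 bp in replicate 1 and 1642 bp in replicate 2. In Sp8, a limb and forebrain factor, the peak was 1937 bp and 2068 bp. In Tbx18 it was 1044 bp and 1131 bp, standing at the 95.5th and 78.8th percentile of its list by −log10 q. In replicate 1 the peaks of the 12 genes, except that of Neurog1, were wider than the list median of 344 bp. They were narrower in replicate 2, except at Sp8, Tbx18, Hoxd12 and Neurog1. Hoxd12 had 893 bp and 990 bp, and Neurog1, a proneural factor, had 250 bp and 420 bp. In Lbx1, a factor of migrating muscle precursors, the peak was 2070 bp in replicate 1 and 316 bp in replicate 2. Igf2bp1, an RNA-binding protein of fetal tissues, had 1955 bp and 599 bp and was the named gene here that encodes no transcription factor.

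All 4 Hox clusters carried scattered H3K27me3 peaks, and H3K4me3 peaks were few or absent. Hox genes encode the homeodomain factors that set position along the body axis. Over the 4 clusters, 492.1 kb in all, replicate 1 had 53 H3K27me3 peaks covering 44897 bp (9.12%) and replicate 2 had 20 covering 12365 bp (2.51%). That was 3.66% and 6.21% of all bases under H3K27me3 peaks. H3K4me3 had 5 peaks of 3232 bp in replicate 1 and 1 peak of 593 bp in replicate 2. Of the 39 Hox genes, 25 had H3K27me3 at a start in replicate 1 (64.1%, against 4.25% of all genes), 14 in replicate 2 (35.9%, against 0.448%) and 13 in both.

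Cluster by cluster, H3K27me3 was found in replicate 1 at 6 of 11 Hoxa genes, 4 of 10 Hoxb genes, 8 of 9 Hoxc genes and 7 of 9 Hoxd genes. In replicate 2 the counts were 2, 2, 5 and 5. The widest peak was at Hoxd11, with 2933 bp in replicate 1 and 814 bp in replicate 2. Hoxb13, which is known from the prostate and the hindgut, had 1681 bp and 1613 bp, and Hoxa13 had 1011 bp and 814 bp. H3K4me3 reached 4 Hox genes in replicate 1, and in replicate 2 it reached Hoxc6 alone. Hoxc6 had an H3K4me3 peak of 355 bp and 593 bp and H3K27me3 peaks of up to 1489 bp and 1125 bp, the Hox gene with both marks in both numbers. In replicate 2 H3K4me3 lay at chr15:102999074-102999666 and H3K27me3 at chr15:103009929-103011053, at opposite ends of the gene. Hoxc6 has no listed start, so either end counted, and the marks did not share 1 start in that replicate. Neither mark was found at 12 Hox genes, among them Hoxa6, Hoxa7, Hoxa9 and Hoxa11. Of the 39 Hox genes, 22 had a listed start, and the others were placed by either gene end.

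**Figure D2:**
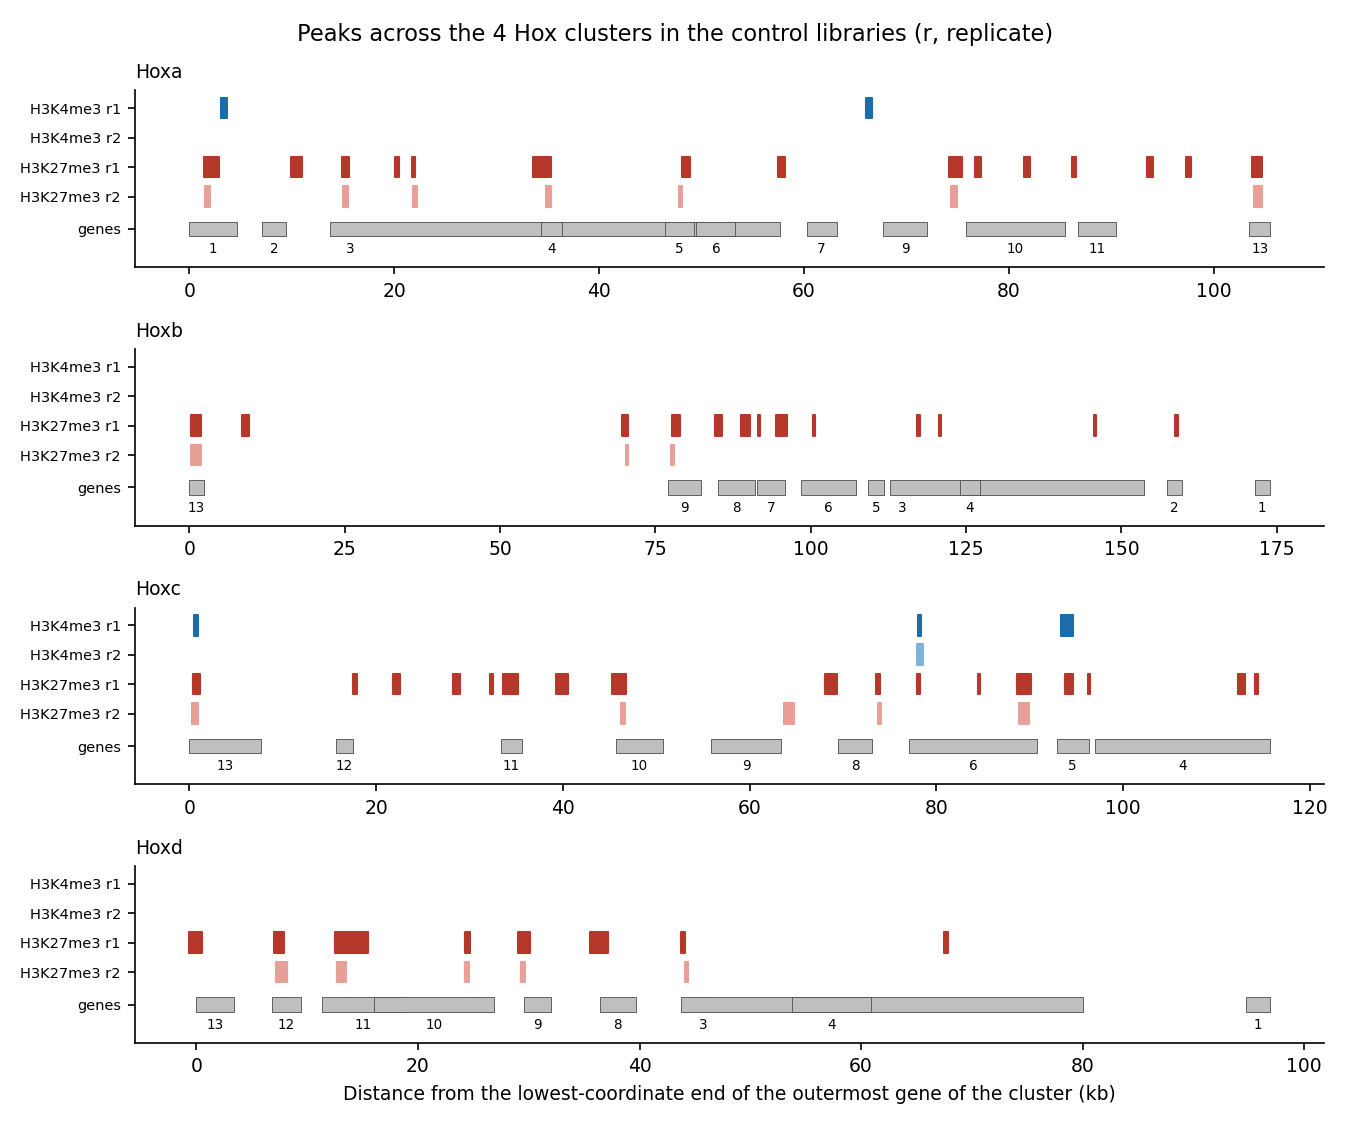
H3K4me3 and H3K27me3 peaks (bars, to scale) of both replicates across the Hoxa, Hoxb, Hoxc and Hoxd clusters, in kb from the lowest coordinate of the cluster, with genes in grey under their paralogue number. H3K27me3 bars stand in all 4 clusters, 53 in replicate 1 and 20 in replicate 2, beside 5 and 1 bars of H3K4me3.

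Among 139 other developmental transcription factors, H3K27me3 was found at 51 genes in replicate 1 (36.7%), at 18 in replicate 2 (12.9%) and at 16 in both (11.5%). The shares of all genes were 4.25%, 0.448% and 0.324%. H3K4me3 was found at 28 in both libraries, or 20.1%, against 53.9% of all genes. The 16 genes with H3K27me3 in both libraries were Pax2, Gata2, Gata6, Lhx4, Tbx2, Tbx18, Foxd1, Neurog1, Neurog2, Neurod2, Dlx1, Dlx2, Evx2, Barx1, Pou3f2 and Zic2. Evx2, which neighbours the Hoxd cluster, had 2879 bp and 1156 bp. Pou3f2, a neural POU factor, had 2816 bp and 569 bp. Pax2, a kidney and midbrain factor, had 1726 bp and 699 bp. All 3 lacked H3K4me3 in both libraries.

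Gata2, a factor of blood progenitors, had H3K27me3 peaks of 1935 bp and 351 bp and an H3K4me3 peak of 412 bp in replicate 1, with none in replicate 2. Gata6, an endoderm factor, had H3K27me3 of 1020 bp and 1126 bp and an H3K4me3 peak of 737 bp in replicate 2, with none in replicate 1. So at these genes the class depended on a narrow H3K4me3 peak that 1 library held. Other members of the list had H3K4me3 without H3K27me3: Foxc1, a mesenchymal forkhead factor, had 2574 bp and 2582 bp, and Sox8 had 1292 bp and 1010 bp. Neither mark was found at 55 members, among them Pax3, Pax5, Pax7 and Pax8, and 4 of these 55 held an H3K4me3 peak elsewhere in the gene in both libraries.

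Both marks in both numbers were found at 28 genes. In 23 of them the peaks of the 2 marks overlapped each other in both numbers. Only 3, Dlx1, Tbx2 and Hoxc6, came from the Hox and developmental lists, and in replicate 2 the marks of Hoxc6 lay at opposite gene ends. At Tbx2 and Cdh2 the peaks of the 2 marks overlapped in replicate 1 but not in replicate 2. The lists do not hold every developmental transcription factor, and Ebf3 and Foxe3 of this class lie outside them. Of the 28, 16 had H3K27me3 in a treated library. Those named by the rank of the H3K27me3 peak included Frmd4b, Tmem267, Cdh2, Pparg, Coch, Ebf3, Tbx2, Dock3, Hoxc6 and Hdac2.

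These genes fell along a range of H3K4me3. Cdh2, N-cadherin of mesenchymal and neural cells, had H3K4me3 of 1381 bp and 498 bp and H3K27me3 of 1026 bp and 1520 bp, and its H3K4me3 peak stood at the 26.3rd and 16.3rd percentile of its list. Pparg, the master regulator of adipocyte differentiation, had H3K4me3 of 1323 bp and 923 bp and H3K27me3 of 817 bp and 1018 bp, at the 23.0th and 12.7th H3K4me3 percentile. Tbx2, a T-box repressor, had H3K4me3 of 528 bp and 539 bp at the 24.6th and 0.186th percentile and H3K27me3 of 1506 bp and 977 bp. In these genes H3K4me3 was low in its list and H3K27me3 was wide. Ebf3, Coch and Dock3 were alike, with H3K4me3 peaks below the 31st percentile in both lists.

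Hdac2 was of another kind. This histone deacetylase gene had H3K4me3 of 1480 bp and 1314 bp at the 87.1st and 88.1st percentile, and H3K27me3 of 315 bp and 310 bp. Its H3K27me3 peaks were narrower than the median of their list and overlapped strong H3K4me3. Tmem267 fell in neither group. Its H3K4me3 stood at the 83.0th and 82.4th percentile, and its H3K27me3 peaks of 777 bp and 820 bp were wider than the list medians of 344 bp and 377 bp.

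A different split, by membership of the Hox and developmental lists, was made over all H3K27me3 genes of replicate 1. Cdh2, Pparg, Ebf3, Coch, Dock3 and Hdac2 all fall among the other genes in it, and Tbx2 among the listed ones. The 178 Hox and developmental list genes had 76 members with H3K27me3 (42.7%), and the other 21705 genes had 853 (3.93%). The widest H3K27me3 peak at a gene had a median of 984 bp over the 76 and of 376 bp over the 853, and at least 1000 bp were reached by 38 of 76 and by 62 of 853. H3K4me3 was also present at 28.9% of the 76 and at 85.5% of the 853, against 56.3% of all genes. Over all 178 listed genes that share was 27.5%, so listed genes with H3K27me3 stood near their list as a whole. In replicate 2, with 32 and 66 genes, the medians were 591.5 bp and 439.5 bp and the shares with H3K4me3 were 12.5% and 62.1%, against 54.3% of all genes and 21.3% of the list. Both replicates thus showed a wider median H3K27me3 peak and less H3K4me3 at the listed developmental genes, with a smaller width difference in replicate 2. In replicate 1 the listed genes had the wider median with H3K27me3 only (984 against 425 bp) and with both marks (946 against 368 bp). In replicate 2 the medians reversed among genes with H3K27me3 only, at 497.5 bp for 28 listed genes and 599 bp for 25 others. With both marks they were 1051 bp for 4 listed genes and 402 bp for 41 others. The lists were chosen with results of these data known, so the counts are a description.

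The sets differed too in how often H3K27me3 was found again. Of the 76 listed genes of replicate 1, 29 (38.2%) had it in replicate 2 and 48 (63.2%) in a treated library. Of the 853 others, 42 (4.92%) had it in replicate 2 and 196 (23.0%) in a treated library. Over all genes, 67.6% of the 71 genes with H3K27me3 in both control libraries had it in at least 1 of the 4 treated libraries. The share was 22.8% of the 858 genes marked in replicate 1 alone, 14.8% of the 27 marked in replicate 2 alone and 2.23% of the 20927 marked in neither control library.

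At starts with both marks in batch 1, the H3K4me3 peak of the 22 listed genes had a median of 673.5 bp and stood at a median percentile of 26.4. The 27 listed genes with H3K4me3 only were close to them, with a median of 856 bp at the 34.8th percentile. At the 729 other genes with both marks it had a median of 1414 bp and stood at 88.2. Starts with H3K4me3 only, 11561 in that batch, had a median of 1229 bp and stood at 69.0. Both-mark starts outside the lists therefore carried wider and stronger H3K4me3 peaks than H3K4me3-only starts in that batch. In batch 2 the 45 genes with both marks had a median of 897 bp at the 30.5th percentile, against 1170 bp at the 67.8th for H3K4me3 only. The difference in median width, both marks minus H3K4me3 only, was 168 bp in batch 1 and -273 bp in batch 2, so its direction was not shared.

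When the genes with H3K4me3 were cut into 5 equal steps of its −log10 q, the share of genes that also had H3K27me3 in replicate 1 was 5.16% in the weakest, 1.87%, 2.92% and 6.26% in the next 3, and 14.3% in the strongest. In replicate 2 the shares were 1.14%, 0.0421%, 0.126%, 0.126% and 0.463%, which rest on only 27, 1, 3, 3 and 11 genes. In both replicates the weakest and the strongest step lay above the middle step, the strongest being the highest in replicate 1 and the weakest in replicate 2. Of the 39 listed developmental genes in the weakest step of replicate 1, 21 had H3K27me3, and the strongest step held no listed gene.

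**Figure D3:**
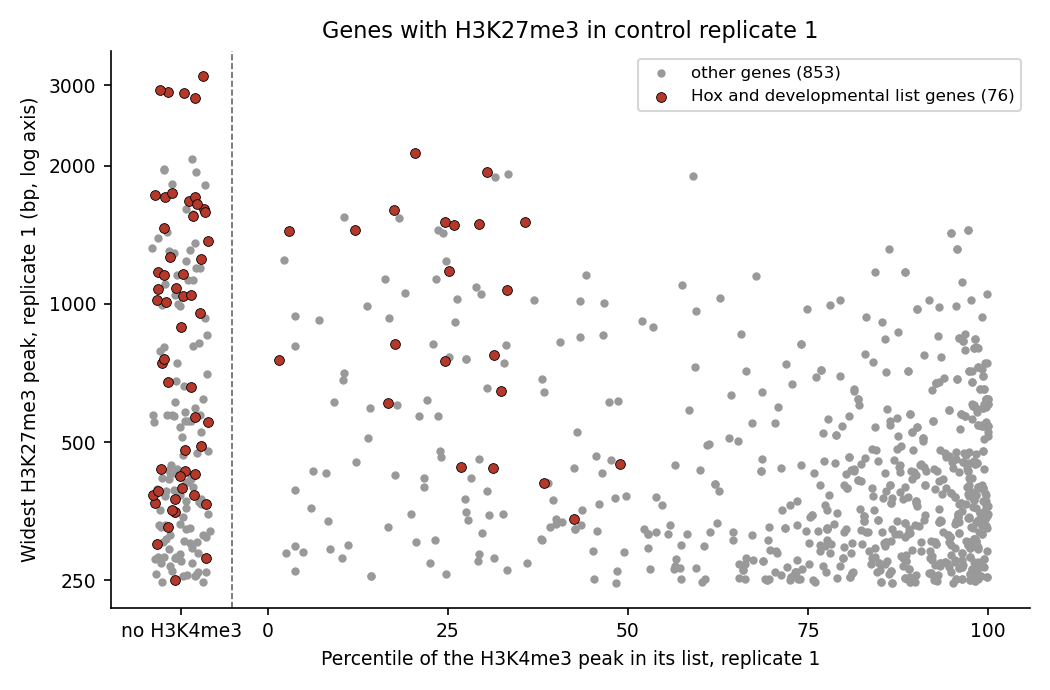
Each point is 1 of the 929 genes with H3K27me3 in control replicate 1, by the percentile of its H3K4me3 peak (horizontal axis, genes without H3K4me3 in the strip at the left with random sideways offsets) and the width of its widest H3K27me3 peak (vertical axis, bp, log scale). The 76 Hox and developmental list genes lie in the strip or below the 50th percentile, and most of the 853 others lie low and to the right.

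Nearly all genes for growth, division and chromatin modification carried H3K4me3. H3K4me3 was present in both libraries at 63 of 64 ribosomal protein genes, 39 of 40 cell cycle genes, 18 of 20 housekeeping genes and 40 of 41 genes for writers, erasers and readers of the marks, against 53.9% of all genes. Ezh2 had 1492 bp and 1557 bp, Eed 2030 bp and 1902 bp, and Suz12 1671 bp and 1534 bp, the 3 core subunits of Polycomb repressive complex 2. Myc, the growth-promoting transcription factor, had 3464 bp and 3247 bp, and Ccnd1, cyclin D1, had 2827 bp and 2557 bp. In replicate 1, H3K27me3 was found at 3 of the ribosomal protein genes (4.69%), 5 of the cell cycle genes (12.5%), 1 of the housekeeping genes (5.0%) and 6 of the chromatin genes (14.6%), against 4.25% of all genes. In replicate 2 it was found at none of them, against 0.448% of all genes.

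The genes of these lists outside the count, Rpl17, Ccnd2, Actb, Ywhaz and Ash2l, all had an H3K4me3 peak inside the gene in both libraries. For Actb, beta-actin, it measured 2287 bp and 1593 bp. These 5 genes have no listed start in the reference used, and their outermost ends lay more than 1 kb from the peak. Of all 9292 genes with neither mark, 641 (6.90%) held such a peak in both libraries: 5.97% of the 7316 with a listed start and 10.3% of the 1976 placed by either gene end.

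H3K27me3 was found in replicate 1 at 5 cell cycle genes, namely Mki67, Cdk1, Mcm4, Aurkb and E2f3, with widths of 597, 273, 272, 367 and 549 bp. All 5 had H3K4me3 between 1269 bp and 2925 bp in both libraries. The 3 ribosomal protein genes were Rps14, Rps25 and Rps29, with 248, 541 and 248 bp, and the housekeeping gene was Ppia, with 277 bp. Ezh1, Kdm6a, Kdm6b, Dpy30, Cbx8 and Pcgf1 were the 6 chromatin genes, with 251 to 714 bp. All of them also carried H3K4me3 in both libraries.

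Of 20 tumour suppressor and cell cycle inhibitor genes, 18 had H3K4me3 in both libraries (90.0%, against 53.9% of all genes), 17 of them with H3K4me3 only in both numbers. Cdkn2a, which encodes p16 and p19 and is a known Polycomb target, had H3K4me3 of 1547 bp and 1578 bp and no H3K27me3 peak. Cdkn1a (p21) had 2282 bp and 2345 bp. Cdkn2d had H3K4me3 of 993 bp and 979 bp with H3K27me3 of 263 bp in replicate 1. Cdkn1c and Trp73 had neither mark at a start, and Trp73 held an H3K4me3 peak elsewhere in the gene.

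The widest H3K4me3 peaks at genes without H3K27me3 were those of Brd2, Tob2, Dusp7, Mxi1, Efna5, Dusp4, Midn and Cdk6. Brd2 had 5018 bp in replicate 1 and 3837 bp in replicate 2, in a peak that also reached a start of H2-DMa. Dusp7 and Dusp4, phosphatases that switch off MAP kinases, had 4170 bp and 4046 bp, and 3732 bp and 3606 bp. Cdk6, a kinase of the G1 phase, had 3564 bp and 3569 bp. These peaks were wide without being the strongest: Tob2 stood at the 57.9th and 51.1st percentile of −log10 q, and Dusp7 at the 48.6th and 40.7th.

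The strongest were Orc6, Nutf2, Kdm1b, Aph1b, Pmel, Exosc1, Prkaca and Dgcr8, which had peaks of 1043 to 1604 bp in both libraries. Their class rests on the control libraries. In the 4 treated libraries H3K27me3 was found at Orc6, Aph1b and Exosc1 in 2 and at Kdm1b and Prkaca in 1. It was not found there at Nutf2, Pmel, Dgcr8 or the 8 widest genes. Of all genes without H3K27me3 in control, 2.23% had it in a treated library. Orc6, a subunit of the origin recognition complex, had 1604 bp and 1481 bp with a −log10 q of 293 and 217. Kdm1b, a demethylase of lysine 4, had 1493 bp and 1554 bp with 285 and 201. Orc6, Kdm1b, Pmel and Exosc1 share their peak with a neighbour (Vps35, Tpmt, Rab5b and Zdhhc16), so the width cannot be assigned to 1 start there. No gene stood among both the 8 widest and the 8 strongest.

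The label of breast cancer organoids was set beside marker genes of epithelium and of other cell types. H3K4me3 was present in both libraries at 23 of 24 epithelial junction and identity genes (95.8%, against 53.9% of all genes), and no member had neither mark. Cdh1, E-cadherin, had 1634 bp and 1543 bp, and Epcam had 1017 bp and 961 bp. Esrp2, an epithelial splicing factor, had 3363 bp and 3476 bp, and Jup, plakoglobin, had 2913 bp and 2838 bp. Cd24a, a surface antigen, had H3K4me3 of 1968 bp and 1888 bp and H3K27me3 of 670 bp in replicate 1. Of markers of other cell types, H3K4me3 in both libraries was found at 3 of 14 for fibroblasts, 3 of 15 for endothelium, 4 of 20 for blood, 4 of 12 for adipocytes, 4 of 25 for neurons and 1 of 20 for liver. Ptprc, Cdh5, Adipoq and Alb had neither mark at a start, nor did Pdgfra, which held an H3K4me3 peak elsewhere in the gene in both libraries. Of the 10 endothelial markers with neither, 5 held an H3K4me3 peak elsewhere in the gene, and Sox17 had H3K27me3 of 300 bp in replicate 1. Col1a1, a fibroblast collagen, had H3K4me3 of 1025 bp and 1045 bp, and Spi1, a myeloid factor, had 612 bp and 296 bp. A peak in bulk chromatin does not say how many of the cells carry it.

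Among the mammary lineage genes, 13 of 17 hormone-sensing luminal genes had H3K4me3 in both libraries (76.5%, against 53.9% of all genes). Krt8, the simple keratin of luminal cells, had 1628 bp and 1629 bp, while Esr1, the oestrogen receptor, had 563 bp and 328 bp, and Gata3, the luminal regulator, had 818 bp and 787 bp. Pgr, the progesterone receptor, and Tnfsf11 (RANKL) had neither mark. Foxa1, the pioneer factor of luminal cells, had H3K4me3 of 431 bp and H3K27me3 of 1448 bp in replicate 1 and neither in replicate 2. Tbx3 had H3K4me3 of 1021 bp and 517 bp, with H3K27me3 of 408 bp in replicate 1.

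Luminal progenitor and alveolar genes had H3K4me3 in both libraries at 11 of 19 (57.9%), which is near the 53.9% of all genes. Elf5, the alveolar regulator, had 1323 bp in replicate 1 and 333 bp in replicate 2, and Kit, the progenitor receptor, had 1254 bp and 459 bp. The milk protein genes Csn1s1, Csn2, Csn3, Wap and Lalba had neither mark. Itgb3 had H3K27me3 of 630 bp in replicate 2 and H3K4me3 of 816 bp in replicate 1. Basal and myoepithelial genes had H3K4me3 in both at 13 of 22 (59.1%), likewise near the share of all genes, among them Krt14 with 2418 bp and 2263 bp and Krt5 with 1763 bp and 1496 bp. The contractile genes Acta2, Actg2 and Myh11 had neither. Trp63, the basal master regulator, had none at its outermost ends and an H3K4me3 peak inside the gene. Lgr5 and Itga6 had H3K27me3 of 460 bp and 257 bp in replicate 1, each with H3K4me3 in both libraries.

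Genes of the epithelial mesenchymal transition, the programme by which carcinoma cells turn migratory, had H3K4me3 in both libraries at 16 of 22 (72.7%, against 53.9% of all genes). Snai2 had 1915 bp and 1708 bp, and Zeb1 had 1097 bp and 784 bp, both without H3K27me3. Twist1 had H3K4me3 of 1394 bp and 1308 bp and H3K27me3 of 1509 bp in replicate 1. Zeb2 had H3K4me3 of 774 bp and H3K27me3 of 303 bp, both in replicate 1 alone. With Cdh2, 3 of the 22 genes had H3K27me3 in replicate 1 (13.6%, against 4.25%) and 1 in replicate 2.

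The cannabinoid receptor genes, of interest for the treatments of the series, differed from each other. Cnr1 had H3K4me3 of 985 bp and 857 bp and H3K27me3 of 327 bp in replicate 1. Cnr2, the gene of the CB2 receptor, had neither mark at its listed starts and no peak within the gene. The hydrolases Faah (662 bp and 793 bp) and Mgll (741 bp and 702 bp) had H3K4me3 only. Of 19 Wnt ligand genes, 11 had H3K4me3 in both libraries (57.9%, near the 53.9% of all genes), with Wnt5a at 2301 bp and 2288 bp, and Wnt5b and Wnt16 had H3K27me3 of 367 bp and 395 bp in replicate 1. Of 25 imprinted genes, 11 had H3K4me3 in both (44.0%), and Igf2, the fetal growth factor, had H3K27me3 of 1546 bp and H3K4me3 of 625 bp in replicate 1 and neither in replicate 2.

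**Figure D4:**
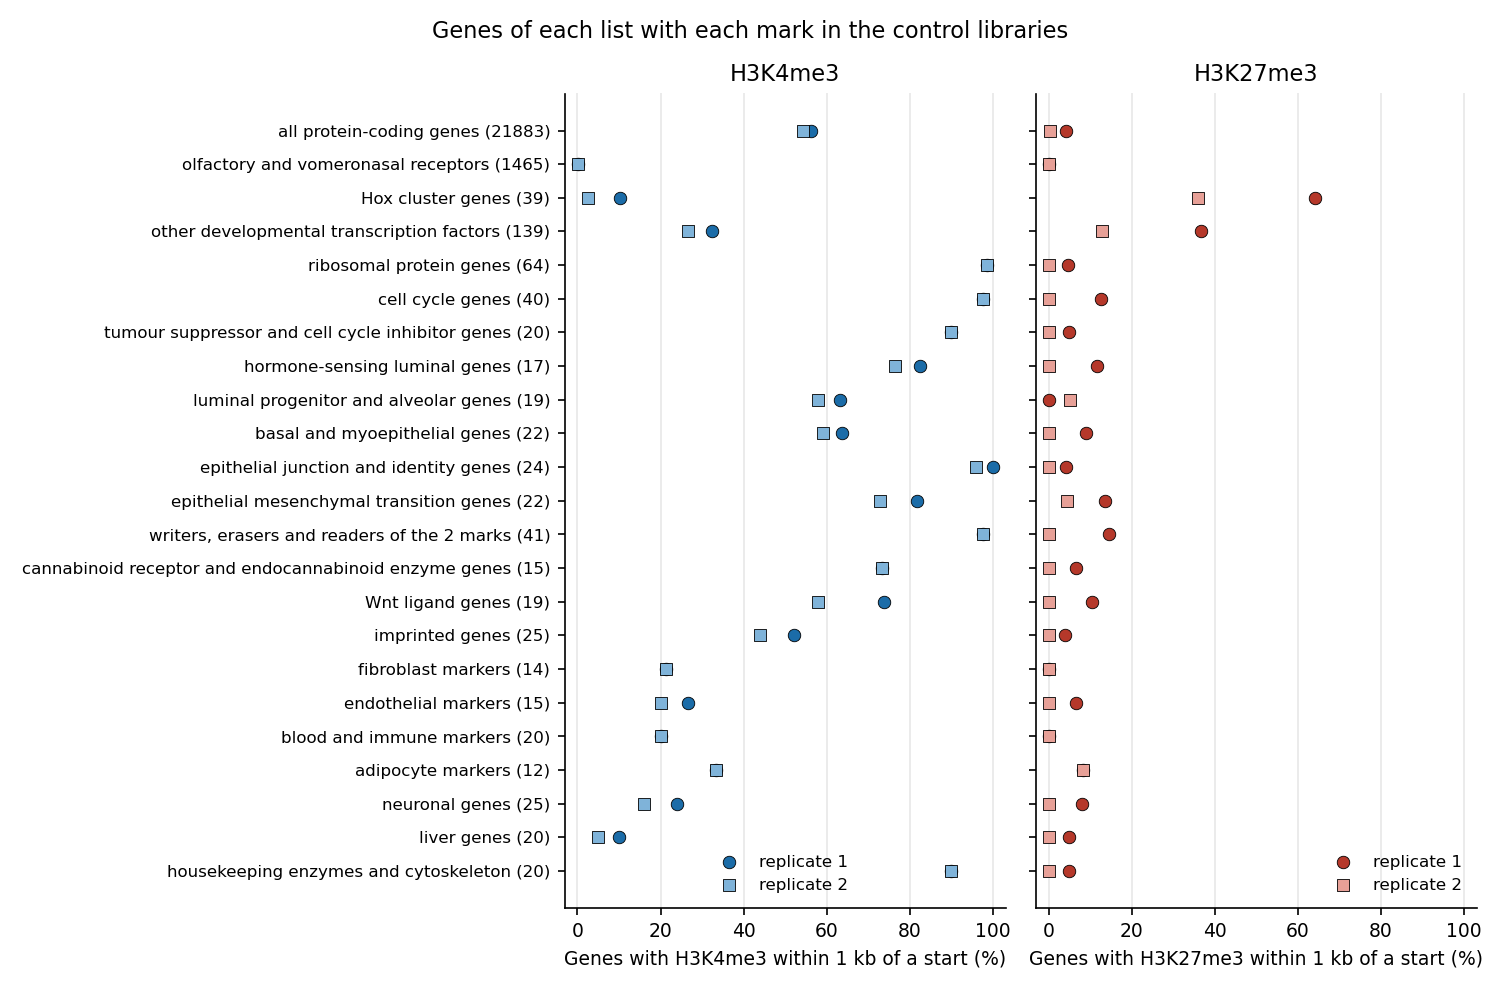
Share of genes (horizontal axes, %) of each list with H3K4me3 (left) and H3K27me3 (right) within 1 kb of a start, for replicate 1 (circles) and replicate 2 (squares), with the number of genes in brackets. The Hox cluster genes and the other developmental transcription factors stand at the right in the H3K27me3 panel, at 64.1% and 36.7% in replicate 1 and 35.9% and 12.9% in replicate 2, and no other list exceeds 14.6%.

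Most genes of other tissues had neither mark. Of the 1465 olfactory and vomeronasal receptor genes, which are used by sensory neurons of the nose, 1461 (99.7%) had neither mark, against 42.5% of all genes. Of 20 liver genes, 18 had neither, among them Alb, Apob and Apoc3, and Apoa1, which held an H3K4me3 peak elsewhere in the gene in both libraries. Of 25 neuronal genes, 17 had neither, among them Syt1, Snap25, Rbfox3 and Gad2, and Slc17a6 and Nefm had H3K27me3 of 272 bp and 434 bp in replicate 1. Ahsg, a liver glycoprotein, had H3K4me3 of 338 bp and H3K27me3 of 337 bp in replicate 1. Most of these tissue genes thus had no peak of either mark at a start. With the H3K27me3 depth unknown, that does not show that H3K27me3 was absent. Of the genes with neither, 1 of the 18 liver and 1 of the 17 neuronal genes held an H3K4me3 peak elsewhere in the gene.

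The classes differed in the sequence of the promoter, counted in the 17491 genes with a listed start. The median number of CpG in 300 bp was 29 at the 22 promoters with both marks, 23 at the 8994 with H3K4me3 only, 17 at the 25 with H3K27me3 only and 3 at the 7316 with neither, beside 14 over all. As the ratio of observed to expected CpG, the medians were 0.795, 0.799, 0.723 and 0.197, beside 0.597 over all. The G and C content was 69.5%, 62.3%, 61.7% and 47.3%. The medians of the 3 marked classes lay above those of all promoters, and that of the unmarked class below. Of the printed promoters, Frmd4b had a ratio of 0.524, below the median of all, and Hoxa13, Tmem267 and Brd2 had 0.918, 1.16 and 0.938. No CpG at all was found in 12.2% of unmarked promoters, against 5.15% of all.

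The letters TATAAA, the core of the TATA box, were searched on both strands of the same 300 bp. No set distance from the start was required, so a match need not be a TATA box. The classes also differed in G and C content (47.3% for neither, 62.3% for H3K4me3 only), and its part in the shares was not tested. They were found in 22.8% of promoters with neither mark, 6.06% of those with H3K4me3 only, 9.09% of those with both marks and 4.0% of those with H3K27me3 only, beside 13.1% of all promoters. The classes with 22 and 25 promoters hold too few for a share to be precise. In batch 1, with 606 promoters carrying both marks and 123 carrying H3K27me3 only, the median CpG counts were 24.5 and 15, and the shares with TATAAA were 3.63% and 8.13%. The 88 promoters with H3K27me3 only in batch 1 that lay outside the Hox and developmental lists had a median of 13.5 CpG and a ratio of 0.517, both below the medians of all promoters. The 35 inside the lists had 19 CpG and a ratio of 0.755.

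**Figure D5:**
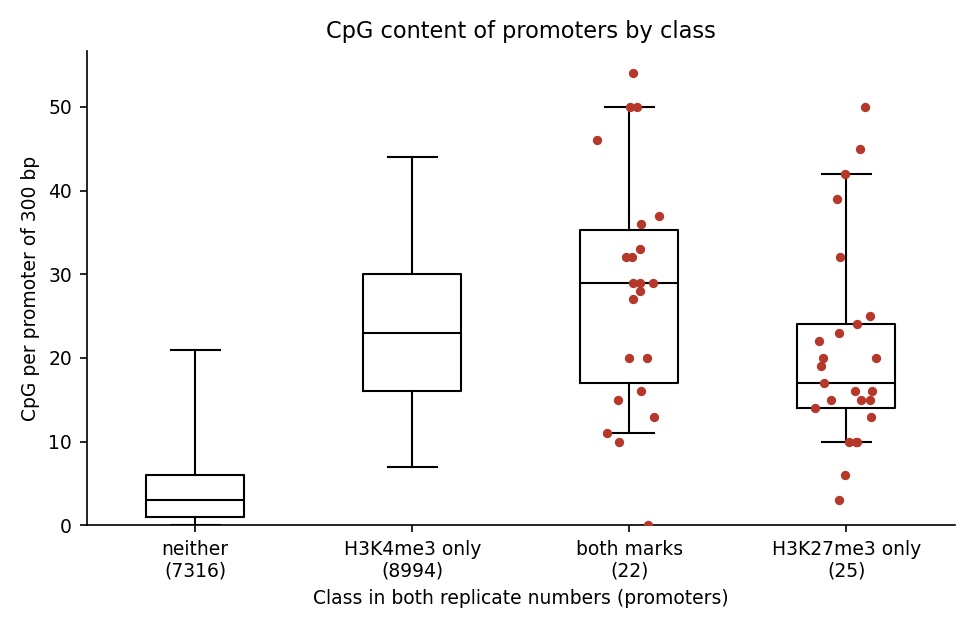
CpG per promoter of 300 bp (vertical axis) by class (horizontal axis, number of promoters in brackets). Boxes show the quartiles and median, whiskers the 5th to 95th percentile, and points single promoters of the 2 small classes. Medians are 3 for neither, 23 for H3K4me3 only, 29 for both marks and 17 for H3K27me3 only.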

How the data were processed

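CUT&Tag peak lists of 4 control libraries were used, 1 list per library, with the 4 treated H3K27me3 lists for recurrence alone. Per the submitters' processing notes, which state no role or order, the tools were Bowtie2 2.5.4, MACS3, SAMtools 1.8, cutadapt 5.2, bedtools, Picard and deepTools, and the build was mm10. Per the file headers and peak names, the authors called peaks per library, narrow for H3K4me3 and broad for H3K27me3. Each deposited line gives a score, a fold enrichment (ratio), a −log10 p and a −log10 q, all the authors' own and used to rank or filter within a list. Read totals are not part of such lists. Pileups of the H3K4me3 lists came out whole (tolerance 0.1%) in at least 99.99% of peaks.

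Chromosomes 1 to 19, X and Y were kept. RefSeq tables of GRCm38.p6 gave strand-aware starts for 17491 of 21883 protein-coding genes, and either gene end stood for the start in the other 4392. A peak overlapping the window of 1 kb either side by at least 1 bp marked the gene. A width at a gene is that of its widest peak there, and a percentile is the rank of its strongest peak by −log10 q. The marks were paired by replicate number, the batch number of the labels. Named genes without clone-type names were the 12 highest by mean H3K27me3 percentile for H3K27me3 only and for both marks, the 8 widest and 8 strongest for H3K4me3 only, list genes with H3K27me3, and otherwise the first list genes of a class. A result at 1 position is not reported here. Further genes of the lists were named for their known roles after their values were seen. The members and the 21 gene lists were chosen with earlier results of these data known. Single values per library were compared by exact permutation tests, and there is no test across genes or peaks. Alternatives covered the window, the overlap, a −log10 q of at least 5, equal peak numbers, each replicate left out, the start definition and, added after seeing the data, genes with strand-aware starts alone, either end for all genes, removal of positions marked in all 6 H3K27me3 libraries, and overlap of the 2 marks. Scripts were tested on simulated data and ran in Python 3.11.15 with pandas 2.3.3, numpy 2.4.6, scipy 1.17.1 and matplotlib 3.10.9.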

Additional observations from a re-analysis of the deposited data

How the results depend on the processing

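The counts with H3K4me3, H3K4me3 only and neither kept within 1.5 times under all alternatives run, and those that need H3K27me3 did not. Genes with H3K27me3 in both libraries (71) were 46 with 500 bp either side, 18 with equal peak numbers and 0 with a −log10 q of at least 5, and 71 to 929 with a replicate left out. Both marks (28) gave 4 with equal peak numbers, 0 with that −log10 q and 30 to 705 with a replicate left out. H3K27me3 only (35) gave 19 with 500 bp, 11 with equal numbers, 0 with that −log10 q and 37 to 169 with a replicate left out. The large values come without H3K27me3 replicate 2. The mean width difference at both-mark starts (-52.5 bp) ranged from -273 to 168 bp with a replicate left out, and turned positive (168 bp) without replicate 2. With a −log10 q of at least 5, the ratios of peak number and covered length became 265 and 489 and the difference in share near a start 71.0 instead of 38.9 percentage points, and with a replicate left out they ranged from 6.42 to 45.0 and from 14.2 to 87.4. Pairing by replicate number as a block (sign flips within numbers) gave p = 0.5 for all 4 library measures, the smallest that 2 pairs allow in that exact test. Without a known H3K27me3 depth, an absent H3K27me3 peak does not show an absent mark.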

Other observations

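At 12727 long noncoding RNA genes the classes had other shares than at protein-coding genes: H3K4me3 only in both numbers at 1803 (14.2%), H3K27me3 only at 15, both marks at 6 and neither at 10401 (81.7%). The X chromosome held 2.43% and 2.62% of H3K4me3 peaks and 4.98% and 9.56% of H3K27me3 peaks (replicates 1 and 2), beside 4.41% of the protein-coding genes. Of the protein-coding genes marked by H3K27me3, 0.969% in replicate 1 and 0 in replicate 2 were on the X, so the X-linked H3K27me3 peaks lay mostly away from protein-coding starts. The 25 positions with H3K27me3 peaks in all 6 H3K27me3 libraries also overlapped H3K4me3 peaks at 18 in batch 1 and 22 in batch 2, and they made up 15 and 17 of the 25 strongest H3K27me3 peaks of their lists.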
